A study of Mus musculus with 35 samples.

Results

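The 38 genes described here encode the machinery that copies DNA: origin licensing (Orc1, Orc6, Cdc6, Cdt1, Mcm2 to Mcm7), helicase activation (Cdc45, Gins1 to Gins4, Mcm10), primase and DNA polymerase alpha (Pola1, Pola2, Prim1, Prim2), the sliding clamp and its loader (Pcna, Rfc1 to Rfc5), the polymerases delta and epsilon (Pold1, Pole), lagging strand joining (Fen1, Lig1), single strand binding (Rpa1 to Rpa3), deoxynucleotide supply (Rrm1, Rrm2, Tyms) and chromatin assembly behind the fork (Chaf1a, Chaf1b). They were taken by symbol from a list drawn up by function, and all 38 were found among the 54752 genes of each expression table. RNA was sequenced from mouse embryonic fibroblasts at passage 2, from E13.5 embryos of males with an Oct4-GFP transgene (CBA/CaJ × C57BL/6J) and 129 females, during reprogramming towards pluripotency. The 129 substrain name carries a number that mostly climbs from label to label, from 129S12/SvJaeJ to 129S46/SvJaeJ, and was not used. All cultures were infected for 48 h with retroviruses and then held in the reprogramming medium iCD3 with Rock inhibitor. JEGS stands for Jdp2, Esrrb, Glis1 and Sall4, and 3 libraries had all 4 factors, 1 each on days 2, 4 and 6. The other 32 libraries had 3 of the 4 factors: without Esrrb, without Glis1, without Jdp2 and without Sall4, with 8 libraries each, 1 on each of days 0 to 7. They are also called the minus-Esrrb, minus-Glis1, minus-Jdp2 and minus-Sall4 arms. The labels' treatment field names all 4 factors and 72 h of induction for every library, so arm and day follow the sample names. The cultures are bulk populations of infected fibroblasts, the labels give no sort, and no uninfected culture was analysed here.

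Replication starts when the origin recognition complex, with Cdc6 and Cdt1, loads the Mcm2 to Mcm7 ring on DNA in G1. In S phase Cdc45 and the GINS complex join the ring to form the active helicase, polymerase alpha with primase lays down primers, and the loader Rfc places the clamp Pcna for polymerases delta and epsilon. Most of these genes are transcribed at the G1 to S transition by E2F factors, so in bulk RNA their level is commonly read as a sign of how many cells are cycling. Fibroblasts brought to pluripotency pass from a cycle with a long G1 to a fast cycle with a short one.

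The libraries held 1266379 to 3608456 expected counts on genes, so 1 count was worth 0.79 CPM (expected counts scaled to a library total of 1000000) in the smallest. The CPM printed also divide by edgeR's TMM scaling factor of the library, which lay between 0.876 and 1.111. Each omitted factor was low in its own arm: Esrrb was at 6.97 to 57.7 CPM there, Glis1 at 0 to 4.51, Jdp2 at 10.4 to 45.0 and Sall4 at 0.573 to 11.2. In the other arms the same genes did not fall below 541, 84.4, 258 and 627 CPM. All 10 fibroblast markers were at or above 1 TPM (transcripts, corrected for length, of a total of 1000000) in all 35 libraries, and their sum lay between 6485 and 10220.1 TPM on day 0 and between 946 and 1975 on day 7. The 8 pluripotency markers summed to 1.26 to 7.08 TPM on day 0. Summed over genes, myeloid markers stood at 7.25 to 59.5 TPM in the 35 libraries, endothelial markers at 4.05 to 78.1, epithelial markers at 33.5 to 593 and red blood cell markers at 0 to 77.9. At the median library without Esrrb, Jdp2, Glis1 and Sall4, in that order, epithelial markers summed to 228, 504, 118 and 93.1 TPM. Endothelial markers summed to 38.9, 27.25, 19.25 and 6.325 TPM and myeloid ones to 12.1, 14.8, 23.9 and 33.1. Pluripotency markers summed to 71.0, 73.3, 6.885 and 26.6 TPM. The part of these markers in the results below was not tested. No arm has a replicate of a day, and the labels name 2 library kits, each with a sequencing kit of its own, without tying either to a library. The design text of the series describes another set of samples, from 2 experiments. A difference in kit, sequencing or experiment between arms and the omitted factor thus cannot be told apart. Totals moved with arm (1377656 to 1651712 without Esrrb, 1266379 to 1682386 in JEGS, 1672386 to 2622470 without Glis1, 1865680 to 3333579 without Jdp2, 1939226 to 3608456 without Sall4). So did the mean fragment length, at 200.6 to 204.7 bases without Esrrb, 198.5 to 201.9 in JEGS, 201.2 to 212.3 without Glis1, 205.7 to 209.4 without Jdp2 and 206.8 to 211.7 without Sall4. The mitochondrial share of counts moved with arm too: from day 2 on it was 2.64 to 3.64% without Esrrb, 2.56 to 3.56% without Jdp2, 4.67 to 6.07% without Glis1, 4.74 to 5.5% without Sall4 and 4.17 to 5.13% in JEGS, so the arms without Glis1 and without Sall4 lay above those without Esrrb and without Jdp2, and JEGS did too. The 100 most abundant genes held 23.2 to 28.19% of counts without Sall4 and 20.26 to 25.2% in the other groups. The part of any of these in the differences below was not tested, except that thinning all libraries to 1200000 counts left every count of members called between arms within 1.5 times its value.

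The promoters of 3 members are shown: 2 subunits of the Mcm ring (Mcm6 and Mcm5) and the catalytic subunit of polymerase alpha (Pola1). They were picked for holding an E2F-type match within 250 bases upstream and no annotated exon in the window, so they are not typical of the members, and whether such matches bear on the levels was not tested. The windows are the 170 bases before the RefSeq start (GRCm38.p6, strand of the gene): chr1:128359706-128359875 on the minus strand, chr8:75109339-75109508 on the plus strand and chrX:93632156-93632325 on the minus strand. Capitals mark matches, on either strand, to TTTNNCGC (the core of an E2F-type site) and to CCAAT (the box bound by NF-Y).
Mcm6: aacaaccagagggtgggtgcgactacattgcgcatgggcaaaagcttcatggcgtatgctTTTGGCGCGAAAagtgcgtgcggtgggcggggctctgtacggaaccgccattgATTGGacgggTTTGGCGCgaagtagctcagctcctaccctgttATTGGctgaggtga
Mcm5: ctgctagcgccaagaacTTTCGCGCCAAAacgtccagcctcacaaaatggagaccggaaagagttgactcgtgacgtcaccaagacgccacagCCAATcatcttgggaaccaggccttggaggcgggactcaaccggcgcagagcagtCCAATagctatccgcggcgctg
Pola1: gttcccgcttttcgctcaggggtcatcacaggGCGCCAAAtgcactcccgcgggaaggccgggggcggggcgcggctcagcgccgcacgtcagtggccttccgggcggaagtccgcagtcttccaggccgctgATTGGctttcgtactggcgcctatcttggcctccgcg
Mcm6 had E2F-type matches that began 110, 106 and 47 bases before the start, the first pair overlapping on opposite strands, and CCAAT boxes at 57 and 14. Mcm5 had an overlapping pair at 153 and 149 and CCAAT boxes at 77 and 22, and Pola1 had 1 match of each kind, at 138 and 37. Of the 38 members, 31 had a RefSeq promoter entry. Within 250 bases upstream, TTTNNCGC was present in 8 of the 31 members (25.8%), against 4.94% of all 27025 genes with an entry and 7.61% of those tested between the arms. CCAAT was present in 21 of the 31 members (67.7%), against 37.49% of all 27025 genes with an entry and 39.92% of those tested between the arms. The E box CACGTG, to which Myc proteins bind, was in 6 of the 31 members (19.4%), against 6.86% of all 27025 genes with an entry and 9.33% of those tested between the arms. TTTGAA, the element common in promoters of mitosis genes, was in 4 of the 31 members (12.9%), against 18.26% of all 27025 genes with an entry and 13.06% of those tested between the arms. The GC share of these windows was 61.2% at the members' median and 59.2% over tested genes. These are matches of letters and a description, with no test.

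Pcna was the most abundant member per length, with a mean of 124 TPM over the 35 libraries, followed by the ribonucleotide reductase genes Rrm2 (93.4 TPM) and Rrm1 (83.2 TPM), then Mcm7 (79.5 TPM) and Mcm3 (64.4 TPM). The lowest were Gins3 (3.05 TPM), Orc1 (6.46 TPM) and Pola1 (6.86 TPM). Across the 35 libraries the highest CPM of a member was between 3.1 times (Rfc2) and 35.8 times (Orc1) its lowest, with a median of 10.1. The highest library of 26 members was one without Esrrb, for 16 of them that of day 5. For 10 members it was JEGS on day 6, and for Rrm2 and Gins3 it was the arm without Jdp2 on day 0. The lowest library lacked Sall4 for 33 members and Glis1 for the other 5. A few members rest on small counts: the lowest library held 1 count of Gins3, 2 of Orc1, 3 of Gins1 and 4 of Cdc6, which limits the precision of their values. All 38 passed the filter on low values (at least 1 CPM in at least 3 libraries) in every fit.

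**Figure D1:**
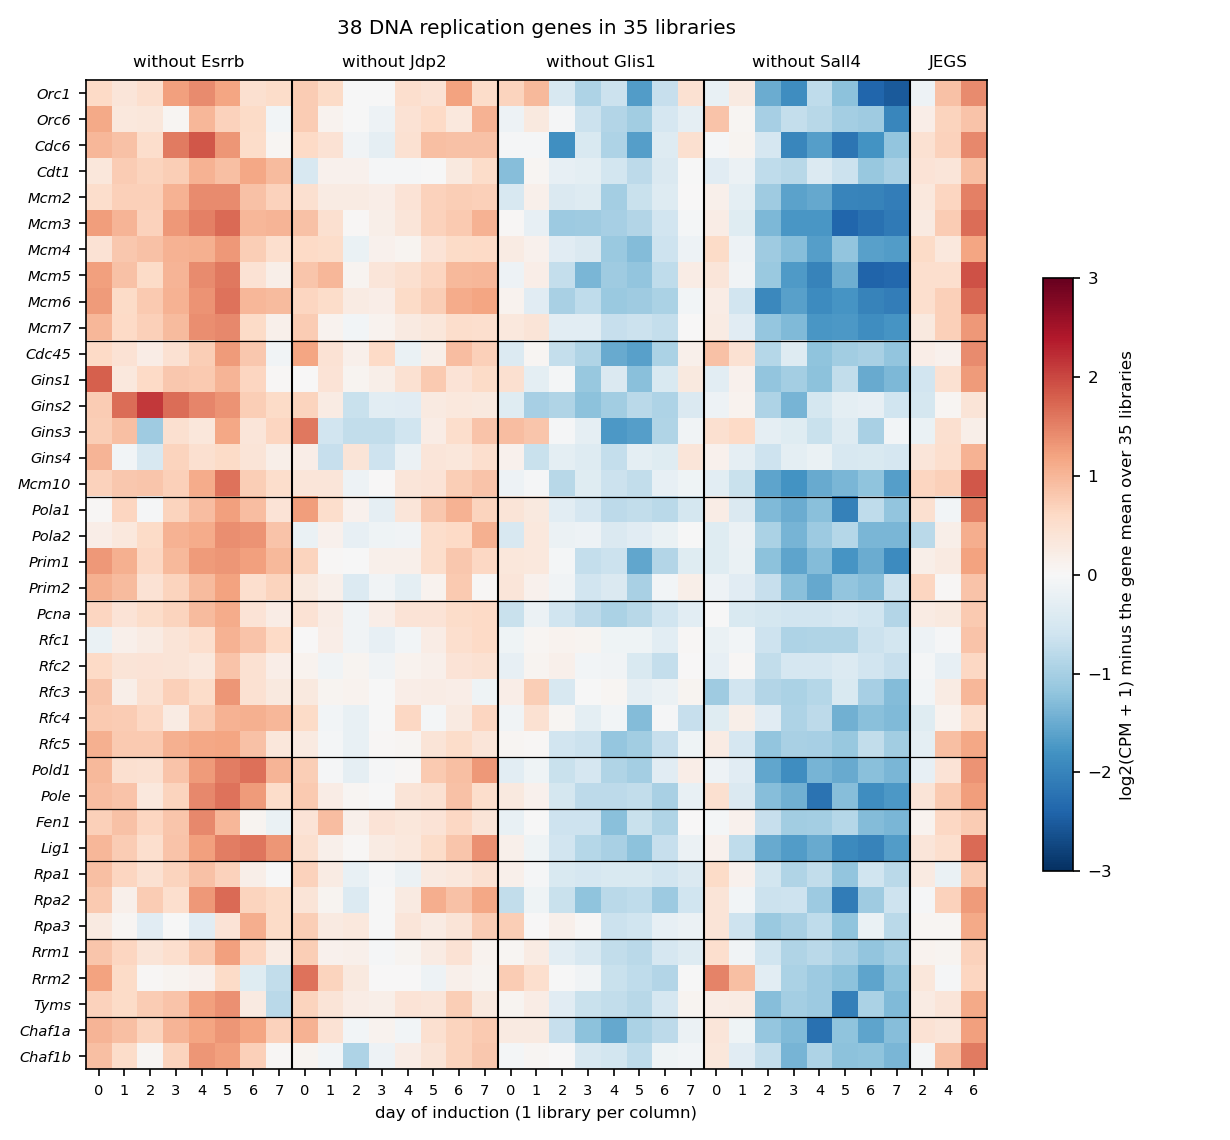
Level of each of the 38 members (rows, grouped by role) in each of the 35 libraries (columns, grouped by arm and ordered by day), as log2 of its CPM plus 1 minus its own mean over the 35 libraries, in colour. The columns without Esrrb and the JEGS column of day 6 are mostly above the mean, and those without Sall4 from day 2 on are below it.

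Summed over the 38 members, the arms without Esrrb and without Jdp2 were level on day 0, the start of induction, and those without Sall4 and without Glis1 stood lower. Without Esrrb the members summed to 2015, 1899, 1919.8, 2162, 2752, 2874, 2104 and 1648 TPM on days 0 to 7. Without Jdp2 the sums were 1972, 1556, 1225, 1225, 1448, 1669, 1910.0 and 1967 TPM. The sum without Esrrb was highest on day 5, and the one without Jdp2 was lowest on days 2 and 3 and back at its day 0 level on day 7. Without Glis1 the sums were 1293, 1239, 818, 772, 659.7, 624, 719 and 1087 TPM. Without Sall4 they were 1519, 1081, 596, 524, 492.8, 521, 489 and 443 TPM. In this arm the sum on every day from 2 to 7 was below every sum of the arms without Esrrb, without Glis1 and without Jdp2. The sum without Esrrb was 1.33 times that without Sall4 on day 0, 5.59 times on day 4 and 3.72 times on day 7. Over that without Glis1 it was 1.56, 4.17 and 1.52 times, and over that without Jdp2 1.02, 1.90 and 0.837 times, so these gaps opened and closed again within the week. JEGS stood at 1348, 1582 and 2797 TPM on days 2, 4 and 6, above the arm without Esrrb only on day 6. In such bulk libraries, fewer cycling cells and less of these RNAs per cell cannot be told apart.

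**Figure D2:**
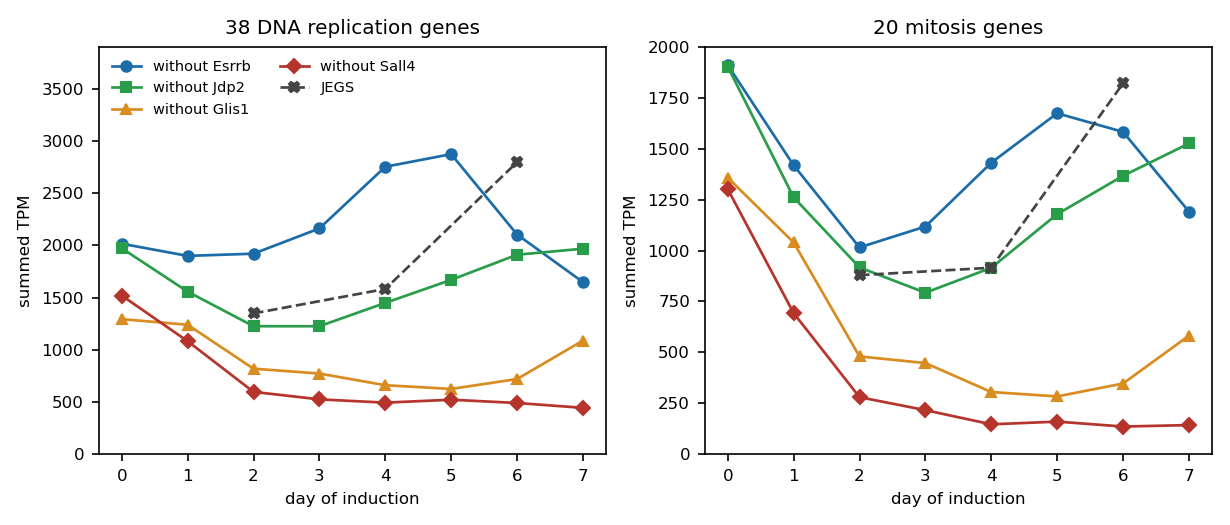
Summed TPM of the 38 members (1 panel) and of the 20 mitosis genes (the other) on each day, 1 line and colour per arm and 1 library per point. The line without Sall4 drops from 1519 to 596 TPM between days 0 and 2 and stays low, and the line without Esrrb peaks at 2874 TPM on day 5.

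Genes of mitosis, a separate list of 20 such as Top2a, Bub1b and Ccnb1, moved with the members over a wider range, though less closely without Esrrb. They summed to 1302, 693, 279.6, 216, 146, 159.5, 135 and 142 TPM on days 0 to 7 without Sall4, to 1358, 1039.8, 479.9, 447, 305, 283, 347 and 582 without Glis1, to 1903, 1262, 917, 793, 915, 1179, 1367 and 1526 without Jdp2 and to 1911, 1419, 1016, 1118, 1432, 1675, 1583 and 1192 without Esrrb. In JEGS they stood at 879, 916 and 1822 TPM. Without Esrrb the mitosis sum was highest on day 0 and lowest on day 2. The members' sum in that arm was near its day 0 level on day 2 and highest on day 5. The members' sum was 1.17 times the mitosis sum on day 0 without Sall4, 1.05 times without Esrrb, 0.952 times without Glis1 and 1.04 times without Jdp2. The ratio was higher on every later day in all 4 arms, and peaked at 3.62 on day 6 without Sall4, 2.20 on day 5 without Glis1, 1.93 on day 3 without Esrrb and 1.58 on day 4 without Jdp2. Transcripts of the delivered factors also differed between the arms: Esrrb had a median of 6228 CPM without Glis1 and 6682 without Sall4, against 1892 without Jdp2 and 1817 in JEGS. Jdp2 had a median of 2711 CPM without Glis1, 1276 without Sall4, 835 without Esrrb and 583 in JEGS. The JEGS medians cover days 2, 4 and 6 only. Glis1 ran from 201 to 542 CPM without Esrrb, 271 to 407 without Sall4, 85.4 to 330 without Jdp2 and 84.4 to 348 in JEGS. Sall4 ran from 1832 to 5484 CPM without Esrrb, 3168 to 5554 without Glis1, 627 to 2781 without Jdp2 and 1248 to 2999 in JEGS. The part of these levels in the results below was not tested.

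By mean CPM over days 0 to 7, 32 of the 38 members stood in the order without Esrrb, without Jdp2, without Glis1, without Sall4. Another 4 had the last pair the other way round, and 2 had the first pair the other way round. Day by day, the arm without Esrrb held the highest value for 29, 29, 33, 36, 37, 38, 23 and 10 members on days 0 to 7. The arm without Jdp2 held it for 28 members on day 7. The arm without Sall4 held the lowest value for 14 members on day 0, when that without Glis1 held it for 22, and for 25 to 37 on the days after. Differences between the arms were tested with edgeR's quasi-likelihood model, fitted to the 32 leave-out libraries with a term for each arm and each day, so that the spread is that between days after each arm's and each day's mean. Values are log2 fold changes with SE, p-values are adjusted by Benjamini-Hochberg over all 18135 genes tested, and a gene is called changed at an adjusted p under 0.05. These p-values measure the spread between single libraries, which the labels do not tie to separate cultures. The 6 pairs of arms share libraries and are not independent of each other.

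The widest gap was between the arms without Esrrb and without Sall4: 37 of 38 members were higher without Esrrb (Gins3 was not called, at 0.89 ± 0.40 (SE), adjusted p = 0.0696), against 22.2% of all genes. The members' median log2 difference was 1.73, that of all genes -0.01. Without Jdp2 against without Sall4, 36 members were higher (all but Gins3 and Gins4) where 18.2% of all genes were, with a median of 1.19 against 0.01. Without Esrrb against without Glis1, 35 were higher (all but Rpa3, Rrm2 and Gins3), against 20.4% of genes, with a median of 1.24 against -0.02. Without Glis1 against without Jdp2, 27 were lower, against 18.0% of genes, with a median of -0.81 against 0.00. The neighbours in the order were closer: 16 members were higher without Glis1 than without Sall4 (background 16.2%, medians 0.59 and 0.03). This count was 7 without the minus-Sall4 arm's library of day 6, 7 without that of day 7, 10, 9 and 8 with days 2, 3 or 7 left out, and 10 with no day term. Between the arms without Esrrb and without Jdp2, 13 were higher without Esrrb (background 8.55%, medians 0.45 and 0.00). This count ranged from 5 (days 3 or 4 left out) to 20 (day 7 left out). It was 8, 7 and 6 without the minus-Esrrb arm's library of day 3, 4 or 5, 7, 7, 8 and 8 without the minus-Jdp2 arm's library of day 0, 1, 2 or 3, 8 and 7 with day 2 or 5 left out, and 7 with no day term. In none of the 6 pairs was a member called in the opposite direction.

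Single libraries show the same gaps. Each of the 8 libraries without Esrrb was above each of the 8 without Sall4 for 18 members, where 3.21% of all genes were so separated, and above each of those without Glis1 for 18 (2.61% of genes). Each library without Jdp2 was above each without Sall4 for 5 members, Mcm2, Mcm10, Prim1, Rfc3 and Fen1 (1.81% of genes). Each library without Glis1 was below each without Jdp2 for 4 members, Mcm2, Mcm6, Pcna and Fen1 (2.31% of genes). For no member did the libraries without Esrrb lie wholly above those without Jdp2 (0.38% of genes), nor those without Glis1 above those without Sall4 (2.16% of genes). Compared on the same day, 32 members were higher without Esrrb than without Sall4 on all 8 days (9.88% of genes), 29 were higher without Jdp2 than without Sall4 (9.82%) and 24 without Esrrb than without Glis1 (7.57%). On all 8 days 21 were lower without Glis1 than without Jdp2 (8.87%), 8 higher without Glis1 than without Sall4 (9.61%) and 7 higher without Esrrb than without Jdp2 (4.22%).

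**Figure D3:**
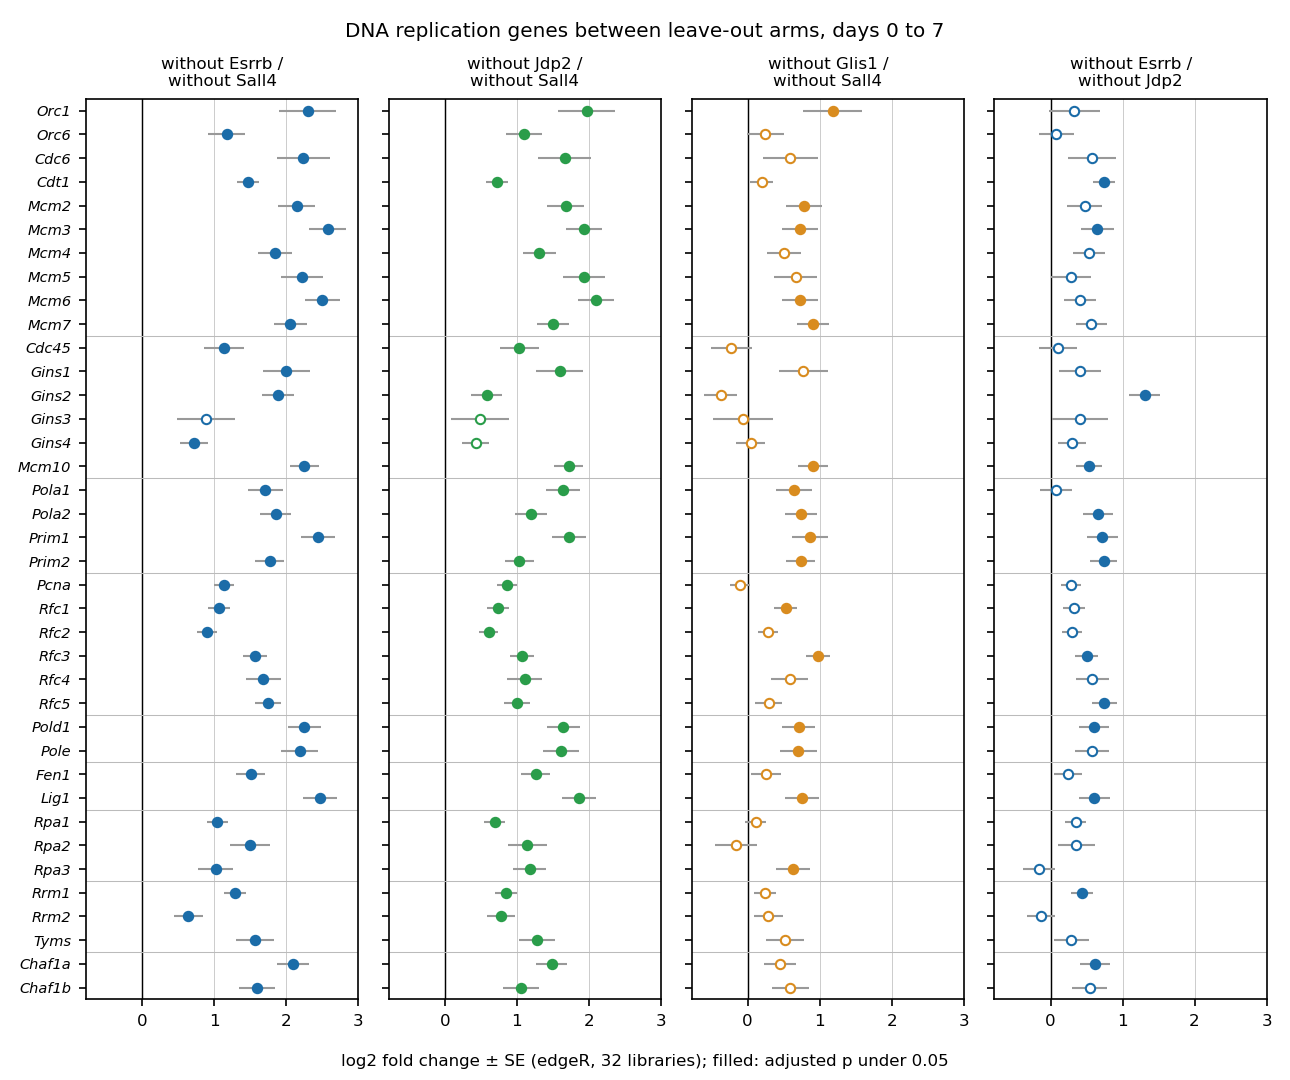
Log2 fold change ± SE of each member (rows, grouped by role) between leave-out arms in 4 panels, from edgeR over 32 libraries, with filled points at an adjusted p under 0.05. Nearly all points are filled in the panels of the arms without Esrrb and without Jdp2 over the arm without Sall4 (37 and 36), and fewer where the arm without Glis1 is over that without Sall4 (16) or the arm without Esrrb over that without Jdp2 (13).

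Origin licensing genes were among those with the widest gaps. Their 10 genes summed at the median library to 653 TPM without Esrrb, 525 without Jdp2, 227 without Glis1 and 122 without Sall4. Mcm6 ran from 95.6 to 202 CPM (median 131) without Esrrb, 73.8 to 147 CPM (median 99.1) without Jdp2, 29.0 to 69.6 CPM (median 35.04) without Glis1 and 14.4 to 75.5 CPM (median 17.3) without Sall4, and was at 90.9, 107 and 213 CPM in JEGS on days 2, 4 and 6. This helicase subunit lay above all libraries without Sall4 and without Glis1 in every library without Esrrb. The log2 difference of Mcm6 between the arms without Esrrb and without Sall4 was 2.51 ± 0.25 (SE), adjusted p = 3.09e-09, a 5.68-fold difference, and between those without Jdp2 and without Sall4 it was 2.10 ± 0.25 (SE), adjusted p = 1.73e-07. Between the arms without Glis1 and without Jdp2 it was -1.37 ± 0.23 (SE), adjusted p = 3.62e-05, lower in 8 of 8 days. Mcm3 ran from 133 to 264 CPM (median 180.2) without Esrrb, 83.2 to 168 CPM (median 122) without Jdp2, 37.8 to 83.6 CPM (median 49.0) without Glis1 and 14.8 to 94.5 CPM (median 23.6) without Sall4, and was at 98.6, 139 and 261 CPM in JEGS on days 2, 4 and 6. Mcm3, another subunit of the ring, had the largest difference of any member between the arms without Esrrb and without Sall4, 2.58 ± 0.25 (SE), adjusted p = 3.04e-09 and 5.98-fold. Mcm2 ran from 155 to 288 CPM (median 188) without Esrrb, 122 to 180.5 CPM (median 146) without Jdp2, 52.7 to 119.7 CPM (median 80.0) without Glis1 and 24.9 to 119 CPM (median 35.6) without Sall4, and was at 134, 169 and 305 CPM in JEGS on days 2, 4 and 6. Its ranges without Jdp2 lay above those without Glis1 and without Sall4 with no overlap. Mcm5 ran from 86.5 to 230.1 CPM (median 148) without Esrrb, 80.9 to 151 CPM (median 127) without Jdp2, 28.7 to 88.8 CPM (median 45.4) without Glis1 and 13.48 to 97.3 CPM (median 24.8) without Sall4, and was at 109, 109 and 288 CPM in JEGS on days 2, 4 and 6. For Mcm5 the library of day 0 without Sall4 (97.3 CPM) overlapped the range without Esrrb. Mcm4 and Mcm7, which sit in the same ring, had medians of 149.7 and 194 CPM without Esrrb and 34.7 and 36.9 without Sall4.

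Of the loading factors, Orc1, the ATPase of the origin recognition complex that is made anew in each cycle, ran from 11.4 to 25.1 CPM (median 13.6) without Esrrb and from 0.7 to 10.7 CPM (median 2.83) without Sall4. In the arm without Sall4 its lowest value rests on 2 counts. The log2 difference of Orc1 between the arms without Jdp2 and without Sall4 was 1.97 ± 0.39 (SE), adjusted p = 0.000257, and between those without Glis1 and without Sall4 1.18 ± 0.41 (SE), adjusted p = 0.0266, the largest of any member in that pair. Cdc6, which recruits the Mcm ring to origins, ran from 13.9 to 50.8 CPM (median 26.4) without Esrrb and 2.11 to 14.1 CPM (median 4.40) without Sall4. Cdt1, its partner in loading, ran from 73.6 to 132 CPM (median 105) without Esrrb, 41.6 to 85.9 CPM (median 60.9) without Jdp2, 23.5 to 60.4 CPM (median 45.0) without Glis1 and 26.1 to 51.3 CPM (median 35.5) without Sall4. The libraries without Esrrb were above all those without Glis1 and without Sall4. Cdt1 had the second largest log2 difference between the arms without Esrrb and without Jdp2, 0.75 ± 0.15 (SE), adjusted p = 0.000529, higher in 8 of 8 days. Orc6, a small subunit of the origin complex, had one of the smallest in that pair, 0.08 ± 0.24 (SE), adjusted p = 0.858. Orc6 ran from 5.25 to 43.0 CPM (median 11.9) without Sall4, with the highest value on day 0. All 10 licensing genes were higher without Esrrb and without Jdp2 than without Sall4, and 9 of 10 were lower without Glis1 than without Jdp2, the exception being Orc1.

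Among the genes that turn the loaded ring into a helicase, Mcm10, which is needed for origins to fire, followed the licensing genes. Mcm10 ran from 31.9 to 70.4 CPM (median 38.2) without Esrrb, 19.6 to 40.3 CPM (median 28.7) without Jdp2, 12.0 to 21.5 CPM (median 17.7) without Glis1 and 5.64 to 17.3 CPM (median 7.51) without Sall4, and was at 34.9, 36.5 and 83.2 CPM in JEGS on days 2, 4 and 6. All its libraries without Jdp2 were above all without Sall4. Cdc45 and Gins1 had medians of 28.5 and 8.96 CPM without Esrrb and 9.91 and 1.82 without Sall4. Gins3 and Gins4, subunits of the GINS complex, were among the members that differed least. Gins4 ran from 12.0 to 36.0 CPM (median 23.6) without Esrrb and 10.8 to 19.0 CPM (median 13.1) without Sall4, and its log2 difference was 0.73 ± 0.19 (SE), adjusted p = 0.00267. Without Jdp2 against without Sall4 the Gins4 difference was 0.43 ± 0.19 (SE), adjusted p = 0.086, and without Glis1 against without Sall4 it was 0.04 ± 0.20 (SE), adjusted p = 0.908. Gins3 ran from 1.27 to 9.66 CPM (median 6.01) without Esrrb and 1.43 to 6.20 CPM (median 2.78) without Sall4, ranges that overlap. Its log2 difference was 0.49 ± 0.40 (SE), adjusted p = 0.372 without Jdp2 against without Sall4 and -0.06 ± 0.41 (SE), adjusted p = 0.932 without Glis1 against without Sall4.

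By CPM Gins2, the remaining GINS subunit, had a pattern of its own in the arm without Esrrb. It stood at 72.8, 138, 188, 138, 119.8, 110.2, 72.0 and 63.9 CPM on days 0 to 7 there and between 15.6 and 67.9 CPM in the other 27 libraries. Its highest CPM was on day 2. In TPM, Gins2 stood at 78.23, 57.67, 83.75, 64.35, 51.92, 43.9, 42.95 and 26.76 on days 0 to 7 in that arm. By TPM it thus showed no such rise, and day 2 lay near day 0. The arm without Jdp2 held 64.81 TPM on day 0. The cause of this difference between the measures was not tested. The log2 difference of Gins2 was 2.26 ± 0.23 (SE), adjusted p = 5.99e-09 without Esrrb against without Glis1, and 1.31 ± 0.22 (SE), adjusted p = 5.16e-05 against without Jdp2, the largest of any member in both pairs. Gins2 lies at chr8:120578633-120589304 (mm10, GENCODE vM21) on the minus strand, and the 3' end of its gene model overlaps Gse1 at chr8:120228456-120581390 on the plus strand over 2758 bases (over 118 bases in RefSeq's models of the same genes). Gse1, singled out after its values were seen, stood at 30.7, 336, 432, 406, 249, 209, 162 and 143 CPM on days 0 to 7 without Esrrb and between 15.6 and 85.4 CPM elsewhere. By CPM both genes were thus highest in the same library, day 2 without Esrrb. By TPM, Gse1 was highest on day 3 of that arm, at 161.05 against 159.18 on day 2. The predicted gene Gm20388 spans all of Gins2 on the opposite strand and Cdt1 on the same strand. Whether counting used strand is not given in the sources used here, so reads of Gins2 and of its partners on the other strand cannot be told apart. In all, 11 members overlap another protein-coding gene in this annotation (Orc6, Cdt1, Mcm7, Cdc45, Gins2, Rfc2, Rfc4, Rfc5, Fen1, Lig1 and Chaf1a), and a share of their counts is uncertain. For all but Cdt1 the partner lies on the opposite strand. Cdt1 shares its strand with Gm20388, so counting by strand would not part them. Pcna has a processed copy, Pcna-ps2, counted at 1.0 to 16.0 CPM.

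**Figure D4:**
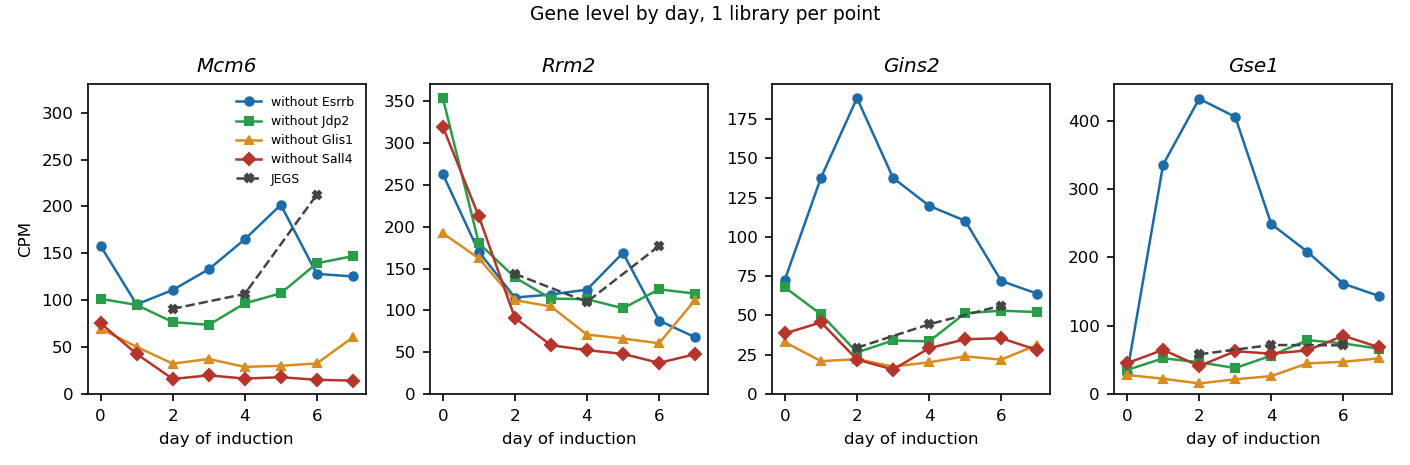
CPM of Mcm6, Rrm2, Gins2 and Gse1 on each day (1 panel per gene), 1 line per arm and 1 library per point. Mcm6 is highest without Esrrb among the leave-out arms on days 0 to 5, Rrm2 is highest on day 0 in all 4 of them, and Gins2 and Gse1 both peak on day 2 without Esrrb.

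The 4 genes of primase and polymerase alpha, which lay down the primer of each new strand, were all higher without Esrrb, without Jdp2 and without Glis1 than without Sall4. They summed at the median library to 112 TPM without Esrrb, 70.6 without Jdp2, 43.0 without Glis1 and 20.5 without Sall4. Prim1 ran from 26.6 to 43.7 CPM (median 39.0) without Esrrb, 16.9 to 30.4 CPM (median 21.9) without Jdp2, 5.11 to 21.5 CPM (median 11.7) without Glis1 and 3.85 to 14.6 CPM (median 5.88) without Sall4, and was at 19.4, 20.8 and 40.6 CPM in JEGS on days 2, 4 and 6. The libraries of Prim1, the catalytic primase subunit, without Esrrb lay above all of those without Glis1 and without Sall4. Pola1 ran from 19.7 to 48.9 CPM (median 32.6) without Esrrb and 16.7 to 49.6 CPM (median 31.2) without Jdp2, ranges that nearly coincide, and its log2 difference in this pair was 0.08 ± 0.22 (SE), adjusted p = 0.856. The other 3 were higher without Esrrb than without Jdp2: Pola2, the regulatory subunit of polymerase alpha, by 0.66 ± 0.21, Prim1 by 0.72 ± 0.21 and Prim2, the large primase subunit, by 0.74 ± 0.19 on the log2 scale.

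The gaps of the clamp and its loader were narrower. Their 6 genes summed at the median library to 427 TPM without Esrrb, 339 without Jdp2, 204 without Glis1 and 162 without Sall4. Pcna ran from 122 to 228 CPM (median 158) without Esrrb, 96.4 to 158 CPM (median 138) without Jdp2, 53.5 to 91.8 CPM (median 67.0) without Glis1 and 56.7 to 104 CPM (median 71.0) without Sall4, and was at 124, 128 and 181 CPM in JEGS on days 2, 4 and 6. The ranges of Pcna without Glis1 and without Sall4 largely overlap, and both lie below those without Esrrb. All 6 genes were higher without Esrrb and without Jdp2 than without Sall4, with a median log2 difference of 1.36 and 0.93, against 2.19 and 1.67 for the licensing genes. Rfc3 ran from 20.4 to 27.4 CPM (median 25.0) without Jdp2, 15.6 to 37.9 CPM (median 22.7) without Glis1 and 8.40 to 15.8 CPM (median 11.3) without Sall4. It gave the second largest log2 difference between the arms without Glis1 and without Sall4, 0.97 ± 0.17 (SE), adjusted p = 3.77e-05, higher in 8 of 8 days, and the smallest between those without Glis1 and without Jdp2, -0.10 ± 0.16 (SE), adjusted p = 0.681. Rfc1, the large subunit of the loader, also differed little in the latter pair, -0.22 ± 0.15 (SE), adjusted p = 0.29. Rfc2, Rfc4 and Rfc5, small subunits of the loader, had medians of 67.2, 18.3 and 63.0 CPM without Esrrb and 35.5, 5.25 and 15.5 without Sall4.

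Pold1 and Pole, the catalytic subunits of the polymerases of the lagging and leading strand, were higher in each arm than in the one without Sall4. Pold1 ran from 48.2 to 112 CPM (median 71.2) without Esrrb and 8.96 to 31.3 CPM (median 12.8) without Sall4 with no overlap, and Pole from 43.7 to 109.7 CPM (median 65.2) and 6.71 to 48.6 CPM (median 13.0) with an overlap on day 0. Fen1, which trims flaps between Okazaki fragments, ran from 45.2 to 77.2 CPM (median 53.7) without Jdp2, above all libraries without Glis1, at 16.2 to 40.8 CPM (median 25.8), and without Sall4, at 15.1 to 43.9 CPM (median 20.5). Lig1, the ligase that seals the fragments, ran from 71.6 to 156 CPM (median 111) without Esrrb and 11.8 to 54.8 CPM (median 16.0) without Sall4 with no overlap, a log2 difference of 2.47 ± 0.24 (SE), adjusted p = 2.32e-09.

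Rpa1 to Rpa3, the subunits of the complex that coats single strands, were higher without Esrrb and without Jdp2 than without Sall4. Rpa2 ran from 8.77 to 19.5 CPM (median 12.4) without Glis1 and 16.0 to 48.9 CPM (median 27.4) without Jdp2, ranges that overlap, and its log2 difference was -1.31 ± 0.28 (SE), adjusted p = 0.00045, the second largest of that pair. Rpa3, at 5.64 to 17.0 CPM without Esrrb and 4.39 to 13.0 without Glis1, did not pass between these arms: 0.39 ± 0.23 (SE), adjusted p = 0.184. Chaf1a, the large subunit of the histone chaperone CAF-1, ran from 71.6 to 115 CPM (median 92.2) without Esrrb, above all libraries without Glis1, at 14.9 to 54.9 CPM (median 26.7), and without Sall4, at 8.68 to 58.1 CPM (median 18.4). Chaf1b, its partner in CAF-1, ran from 23.2 to 57.7 CPM (median 37.0) and 7.97 to 28.5 CPM (median 10.3) in the arms without Esrrb and without Sall4, with an overlap.

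Among the nucleotide supply genes, Rrm2 was at its highest on day 0 in every leave-out arm. Rrm2, the regulatory subunit of ribonucleotide reductase, stood at 263, 170.1, 115, 119, 125, 169, 87.9 and 67.9 CPM on days 0 to 7 without Esrrb and at 354, 180.4, 139, 114, 113, 103, 125 and 120.0 without Jdp2. It stood at 192, 162, 112, 105, 71.1, 66.4, 60.7 and 112 CPM without Glis1 and 319.7, 212, 91.2, 58.4, 52.5, 48.1, 37.3 and 47.6 without Sall4. Rrm2 ended lowest without Sall4, and the JEGS libraries held 144, 110.1 and 177 CPM. Its log2 difference was the smallest of any member both between the arms without Esrrb and without Glis1, 0.36 ± 0.20 (SE), adjusted p = 0.147, and between those without Esrrb and without Sall4, 0.65 ± 0.20 (SE), adjusted p = 0.00849, higher in 6 of 8 days. Rrm1, the catalytic subunit, ran from 189 to 372 CPM (median 249) without Esrrb and 69.7 to 224 CPM (median 87.3) without Sall4. Tyms, which makes thymidylate, ran from 17.4 to 82.4 CPM (median 52.6) and 6.87 to 37.7 CPM (median 14.6) in the same arms.

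JEGS, the set with all 4 factors, was compared with the leave-out arms over the 15 libraries of days 2, 4 and 6, where 16603 genes were tested. Against the mean of the 4 arms, 14 members were higher and none lower, where 3.2% of genes were higher. The members' median log2 difference was 0.80 and that of all genes 0.02. The 14 were Mcm2 to Mcm7, Mcm10, Cdc45, Rfc5, Pold1, Pole, Lig1, Rrm2 and Chaf1a. The largest log2 differences were those of Mcm5, 1.40 ± 0.29 (SE), adjusted p = 0.0134, and Mcm10, 1.38 ± 0.20 (SE), adjusted p = 0.00101, and the smallest those of Rfc4, 0.08 ± 0.29 (SE), adjusted p = 0.928, and Gins2, 0.07 ± 0.27 (SE), adjusted p = 0.934. The count depended on the libraries of days 4 and 6. Without JEGS of day 6, 1 member was called, and without JEGS of day 4 it was 7. With all libraries of day 4 or 6 left out, the count was 1 and 3. It was 22 without the day 4 library of the arm without Esrrb, 23 without the day 2 library of the arm without Glis1 and 1 by limma on log2(TPM + 1). The JEGS sum of pluripotency markers moved with day as well, at 137, 310.0 and 1691 TPM, and its part was not tested.

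The comparisons with single arms share the 3 JEGS libraries. Against the arm without Sall4, 35 members were higher in JEGS (not Rfc4, Gins3 or Gins2), against 11.9% of genes, with a median of 1.77 against -0.01. Against the arm without Glis1, 27 were higher (9.84% of genes), with a median of 1.21 against -0.01. That count was 17 without JEGS of day 6 and 9 with day 4 left out. Against the arm without Jdp2, edgeR called 0 members (0.819% of genes higher and 2.0% lower). An unadjusted p under 0.05 was reached by 3 (14.3% of genes), DESeq2 called 0, and the median was 0.35 against 0.02. Without the minus-Esrrb arm's library of day 6, 1 member was called. Against the arm without Esrrb, only Gins2 passed and was lower in JEGS (2.6% of genes lower), -1.58 ± 0.34 (SE), adjusted p = 0.00967, with a median over members of -0.19 against 0.02 over all genes. As 1 of 38 members, this call is close to the share of all genes, and limma on TPM did not make it. No member was called without JEGS of day 2 or with day 2 or 4 left out, and 2 were without JEGS of day 6 or with day 6 left out.

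Mcm6 stood at 90.9, 107 and 213 CPM in JEGS on days 2, 4 and 6. On the same days it was at 16.2, 16.6 and 15.2 CPM without Sall4. The log2 difference of Mcm6 was 3.05 ± 0.27 (SE), adjusted p = 4.61e-06, 8.31-fold, the largest of any member. Mcm5 followed with 2.89 ± 0.43 (SE), adjusted p = 0.000218. The smallest differences from this arm were Rfc2, 0.76 ± 0.25 (SE), adjusted p = 0.0381, and Gins2, 0.60 ± 0.34 (SE), adjusted p = 0.224. From the arm without Glis1 the largest were again Mcm6, 2.08 ± 0.26 (SE), adjusted p = 5.48e-05, and Cdc6, 1.98 ± 0.50 (SE), adjusted p = 0.0108, and the smallest Rfc2, 0.34 ± 0.25 (SE), adjusted p = 0.383, and Rfc4, 0.17 ± 0.37 (SE), adjusted p = 0.793. From the arm without Jdp2 none passed. Chaf1b was largest at 0.83 ± 0.37 (SE), adjusted p = 0.312, then Mcm10 at 0.82 ± 0.26 (SE), adjusted p = 0.119, and the smallest were Rrm1 at 0.09 ± 0.20 (SE), adjusted p = 0.906 and Rfc2 at -0.05 ± 0.25 (SE), adjusted p = 0.959. From the arm without Esrrb, Pola2 was second to Gins2 at -0.75 ± 0.31 (SE), adjusted p = 0.176, and the smallest were Orc1 at -0.03 ± 0.46 (SE), adjusted p = 0.988 and Cdc45 at 0.02 ± 0.31 (SE), adjusted p = 0.99. A p that misses the threshold does not show that JEGS and these arms were alike.

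Day by day, JEGS was above the arm without Esrrb for 7, 3 and 29 members on days 2, 4 and 6, with median ratios of 0.814, 0.623 and 1.41. Its place relative to that arm thus turned between days 4 and 6. Above the arm without Jdp2 it stood for 26, 29 and 37 members, with median ratios of 1.16, 1.19 and 1.41. For the arm without Glis1 the numbers were 30, 37 and 38, with ratios of 1.57, 2.62 and 3.32. For the arm without Sall4 they were 37, 38 and 38, with ratios of 2.24, 3.26 and 5.34. Over all genes tested, JEGS was above an arm for 42.3 to 47.9% on these days. With 1 JEGS library per day these are descriptions without a test.

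**Figure D5:**
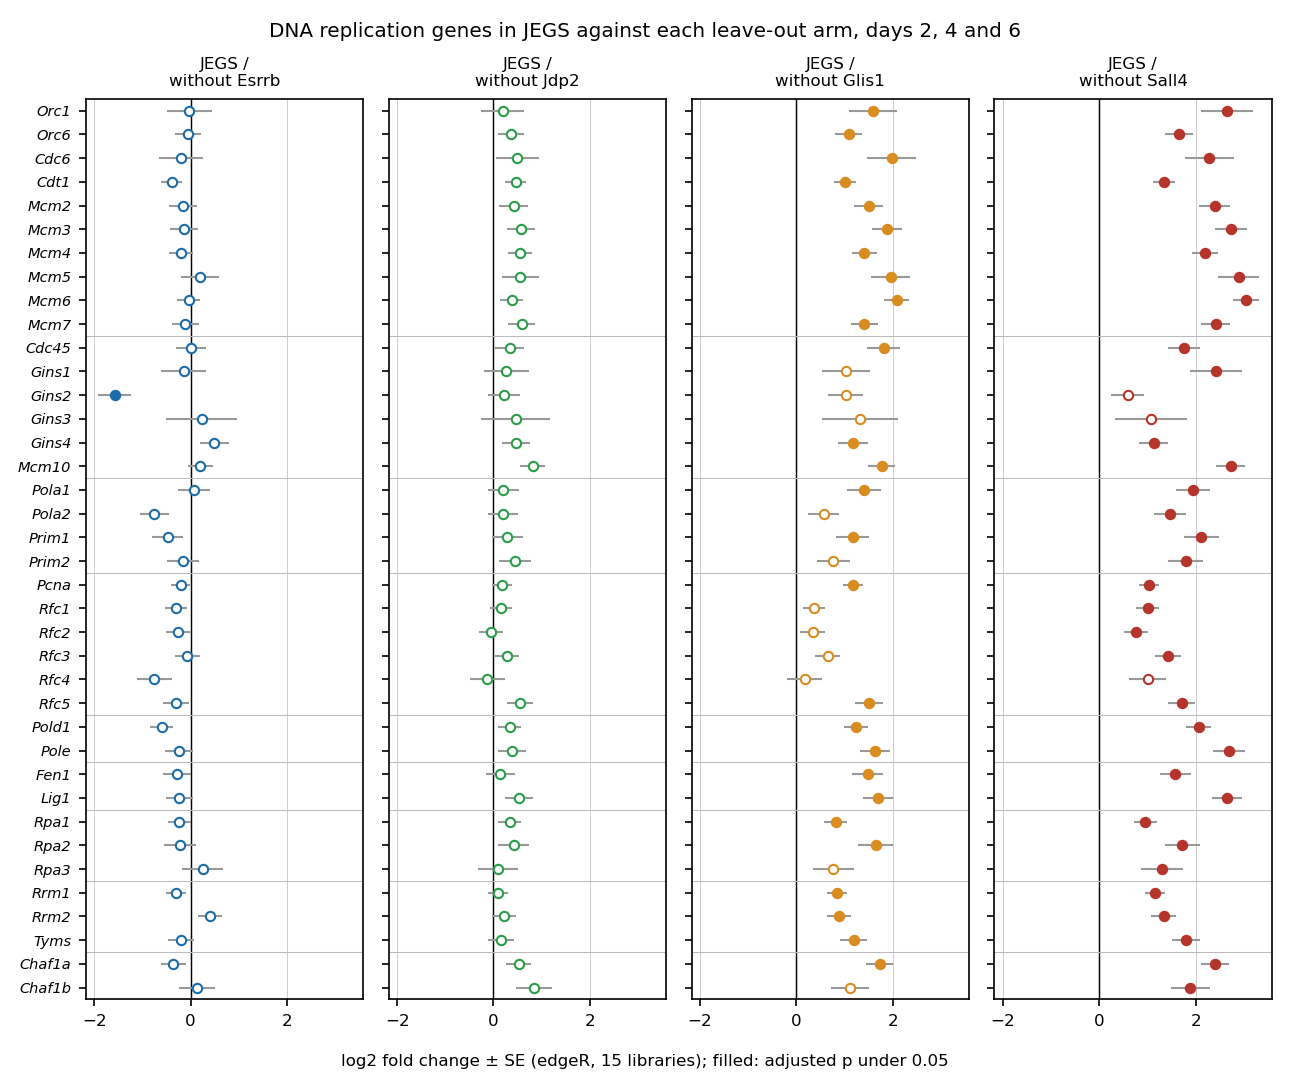
Log2 fold change ± SE of each member (rows, grouped by role) for JEGS over each of the 4 leave-out arms on days 2, 4 and 6, from edgeR over 15 libraries, with filled points at an adjusted p under 0.05. The points over the arm without Sall4 lie to the right of 0 with 35 filled, those over the arm without Glis1 with 27, and over the arms without Jdp2 and without Esrrb 0 and 1 are filled.

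The members ended the week lower than they began it in the arm without Sall4. There the CPM of day 7 was below that of day 0 for all 38 members and below 0.5 of it for 29, with a median ratio of 0.361. The medians were 0.784 without Esrrb, 0.921 without Glis1 and 1.05 without Jdp2. The share of all genes with such ratios is not given here, so these ratios of single libraries are a description. Without Esrrb 23 members were highest on day 5, and without Jdp2 18 were highest on day 7 and 20 lowest on day 2. A line in day fitted for each arm with edgeR gave 21 members that fell without Sall4 (background 5.57%), with a median slope of -0.22 log2 units per day against 0.01 over all genes. The steepest were Orc1, -0.439 ± 0.125 (SE), adjusted p = 0.0246, and Rrm2, -0.415 ± 0.060 (SE), adjusted p = 0.000106, and the flattest Rfc3, -0.029 ± 0.057 (SE), adjusted p = 0.808, and Gins2, -0.029 ± 0.065 (SE), adjusted p = 0.84. This count rests on the start of the series: without the day 0 library of this arm it was 3, with day 0 or day 1 left out in all arms 7 and 12, and over days 2 to 7 it was 0. Most of the drop in the summed level lay between days 0 and 2, where it went from 1519 to 596 TPM.

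In the other arms few members had a slope that passed the test. Over days 0 to 7, the share of the 38 members called in each direction named below was under that of all genes, given in brackets. Slopes are in log2 units per day. Without Esrrb, Pola2 and Rfc1 rose (8.72% of genes rose) and Rrm2 fell (10.5% fell). Pola2 had 0.151 ± 0.048 (SE), adjusted p = 0.0245, and Rrm2 -0.199 ± 0.064 (SE), adjusted p = 0.0281. Rfc3 and Chaf1b were flattest there, at 0.0043 ± 0.052 (SE), adjusted p = 0.981, and -0.0042 ± 0.063 (SE), adjusted p = 0.989. Without this arm's library of day 0 or 6, or with day 6 left out, 1 member was called. Without Jdp2, Pola2 rose (5.19%) with 0.171 ± 0.044 (SE), adjusted p = 0.0119, and Rrm2 fell (4.49%) with -0.187 ± 0.059 (SE), adjusted p = 0.0393. Chaf1a and Tyms were flattest, at 0.0026 ± 0.065 (SE), adjusted p = 1, and 0.00035 ± 0.068 (SE), adjusted p = 1. The count of 2 was 5 without this arm's library of day 0 or with day 0 left out, and 1 without its library of day 1, 4, 5, 6 or 7 or with any of those days left out. Over days 2 to 7, a choice made after seeing the data, 12 members rose without Jdp2. The share of all genes that rose in that fit is not given here, so this count is a description. Pola2 stood at 26.2, 33.5, 25.6, 27.9, 28.4, 44.3, 46.9 and 65.0 CPM on days 0 to 7 without Jdp2, highest on the last day. Without Glis1, only Prim1 fell (4.01% of genes), with -0.181 ± 0.056 (SE), adjusted p = 0.0444. Gins3 had the steepest slope, -0.314 ± 0.132 (SE), adjusted p = 0.147, and Pcna and Gins2 the flattest, -0.0053 ± 0.038 (SE), adjusted p = 0.974, and 0.0021 ± 0.067 (SE), adjusted p = 1. The call of Prim1 was lost without this arm's library of day 0, 1, 4, 5 or 6, without the minus-Sall4 arm's library of day 4, and with day 0, 1, 2, 4, 5 or 6 left out, while 7 members were called without this arm's day 7 and 11 with day 7 left out. Over days 2 to 7 it was 1 that rose.

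The mean slope of the 4 arms was negative and called for 12 members, where 15.8% of genes fell, with a median of -0.06 log2 units per day against 0.01. The share of members is above that background, and the 12 were Rrm1, Rrm2, Tyms, Rpa1, Mcm3, Mcm4, Mcm5, Mcm7, Orc6, Prim1, Fen1 and Pole. Rrm2 was steepest, -0.242 ± 0.030 (SE), adjusted p = 5.13e-07, followed by Orc1, -0.124 ± 0.052 (SE), adjusted p = 0.07. Gins4 and Rpa2 were flattest, at 0.0079 ± 0.031 (SE), adjusted p = 0.913, and -0.0012 ± 0.031 (SE), adjusted p = 1. The count was 20 without the minus-Glis1 arm's day 7, 7 without the minus-Sall4 arm's day 0, and 3 (1 of them higher), 7 (2 of them higher) and 7 with day 0, 1 or 6 left out, and over days 2 to 7 it was 3 members that rose and 1 that fell. Between days 0 and 1 alone, over the 4 arms, only Gins4 passed, -0.83 ± 0.28 (SE), adjusted p = 0.045. Of all genes 6.32% were lower, a larger share than 1 of 38 members. Rpa3 came next at -0.71 ± 0.33 (SE), adjusted p = 0.158, and Cdc6 and Gins2 had the smallest differences, -0.02 ± 0.50 (SE), adjusted p = 1, and 0.01 ± 0.32 (SE), adjusted p = 1. No member was called without the day 0 library of the arm without Esrrb, without that of day 0, 1, 3, 4, 5 or 6 of the arm without Glis1, of day 1, 4 or 5 of the arm without Jdp2 or of day 3 of the arm without Sall4, or with day 4, 5 or 6 left out. There were 2 without the minus-Sall4 arm's day 1 or with day 7 left out, and 1 that was higher without the minus-Esrrb arm's day 1 or the minus-Sall4 arm's day 0 or 6.

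Whether the arms differ in slope was tested by setting 1 arm at a time against the average slope of the remaining 3. Without Sall4, 11 members had a lower slope (background 1.1%), Mcm2 to Mcm7, Orc6, Pola2, Pole, Lig1 and Chaf1b, with a median over all members of -0.22 against 0.00 over all genes. Orc1 had the largest difference, -0.420 ± 0.137 (SE), adjusted p = 0.116, and Mcm5 the next, -0.382 ± 0.083 (SE), adjusted p = 0.0126. The smallest were Gins2, 0.014 ± 0.076 (SE), adjusted p = 1, and Rfc3, -0.0027 ± 0.062 (SE), adjusted p = 1. The count was 1 without this arm's day 0, 7 without its day 1, 17 without the minus-Jdp2 arm's day 0, 7 without the minus-Glis1 arm's day 7, and 5, 6, 7 and 3 with day 0, 1, 5 or 6 left out, and 2 over days 2 to 7. Without Esrrb, Rfc1 alone had a higher slope (2.72%), 0.142 ± 0.043 (SE), adjusted p = 0.0433. No member was called without that arm's library of any of days 1 to 6, without the minus-Glis1 arm's of day 1, 2, 3, 5 or 6, the minus-Jdp2 arm's or the minus-Sall4 arm's of day 0, 1 or 5, or with any of days 1 to 6 left out. There were 3 without its day 7, 2 without the day 7 of any of the remaining arms and 10 with day 7 left out. Over days 2 to 7 it was 1 with a lower slope. Rfc1 stood at 56.7, 72.1, 78.0, 85.1, 93.5, 135, 119.6 and 99.3 CPM on days 0 to 7 in that arm. Pola1, 0.210 ± 0.084 (SE), adjusted p = 0.138, and Orc1, 0.209 ± 0.120 (SE), adjusted p = 0.337, had the largest differences there, and Rfc2, -0.00075 ± 0.043 (SE), adjusted p = 1, and Cdc6, -0.00059 (no SE), adjusted p = 1, the smallest. Without Jdp2, edgeR called 0 members (0.105% of genes higher and 0.0221% lower), DESeq2 0, and an unadjusted p under 0.05 was reached by 19 (9.16% of genes). All 38 differences were positive, where 52.7% of all genes were, with a median of 0.14 against 0.01. Chaf1b was largest, 0.246 ± 0.068 (SE), adjusted p = 0.162, then Orc1, 0.237 ± 0.111 (SE), adjusted p = 0.519, and Rpa3, 0.046 ± 0.080 (SE), adjusted p = 0.959, and Rfc3, 0.013 ± 0.059 (SE), adjusted p = 1, were smallest. Leaving out this arm's day 0, or day 0 in all arms, gave 4 calls, as did days 2 to 7, and leaving out the minus-Glis1 arm's day 7 gave 1. Without Glis1, edgeR called 0 (2.07% higher and 1.49% lower), DESeq2 0, and 0 reached an unadjusted p under 0.05 (16.2% of genes). Gins3, -0.256 ± 0.151 (SE), adjusted p = 0.423, and Rpa3, -0.159 ± 0.083 (SE), adjusted p = 0.347, were largest, and Mcm7, 0.0022 ± 0.059 (SE), adjusted p = 1, and Mcm10, 0.0015 ± 0.057 (SE), adjusted p = 1, smallest.

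Other genes of replication were counted from a list of 41, among them the origin firing factors Ticrr and Recql4, the fork proteins Wdhd1 and Clspn, and the polymerase epsilon subunit Pole2. Without Esrrb against without Sall4, 34 of 41 were higher and 0 lower (22.2% and 24.9% of all genes), led on the log2 scale by Wdhd1 (2.75), Pole2 (2.62) and Ticrr (2.41). Without Jdp2 against without Sall4 it was 32 and 0 (18.2% and 17.0%), led by Ticrr (2.06), Pole2 (2.04) and Nasp (2.02). Without Esrrb against without Glis1 it was 34 and 0 (20.4% and 22.8%), and without Glis1 against without Jdp2 0 and 24 (17.3% and 18.0%). Without Glis1 against without Sall4 it was 11 and 1 (16.2% and 15.9% of all genes), and without Esrrb against without Jdp2 5 and 0. JEGS was higher for 9 of 41 against the mean of the arms (3.2% of all genes), for 29 against the arm without Sall4 (11.9%) and for 18 against that without Glis1 (9.84%). Their slope without Sall4 was negative for 15 (5.57% of all genes called lower). The share that moved was smaller than among the members in each of these comparisons, which was not tested as a difference.

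Of 28 regulators of the G1 to S step, the list least uniform in direction, 20 were higher and 5 lower without Esrrb than without Sall4 (22.2% and 24.9% of all genes), led by Mycn (3.18), E2f7 (2.47) and Skp2 (2.42). Without Esrrb against without Glis1, 17 were higher and 5 lower (20.4% and 22.8% of all genes), and without Jdp2 against without Sall4 14 and 7 (18.2% and 17.0%). Without Glis1 against without Jdp2 it was 5 and 8 (17.3% and 18.0%), with the largest change that of Cdkn1a, 1.86 ± 0.24 (SE), adjusted p = 6.89e-07. Cdkn1a encodes p21, an inhibitor of cyclin-dependent kinases that also binds Pcna. It stood at 576, 1418, 2052, 2352, 1964, 1990.0, 1726 and 1397 CPM on days 0 to 7 without Glis1 and at 612, 700.2, 803, 986, 1011, 1080.5, 1213 and 1299 without Sall4. Its values were 216 to 642 CPM without Esrrb, 309 to 597 without Jdp2, and 1130.0, 759 and 347 in JEGS. From day 1 on the libraries without Glis1 and without Sall4 were above all those without Esrrb and without Jdp2. JEGS on day 2 was above the arm without Sall4 on that day. Whether Cdkn1a bears on the members' levels was not tested. E2f1, a main activator of the members in textbook accounts, ran from 21.5 to 50.0 CPM (median 39.5) without Esrrb, 29.4 to 36.7 CPM (median 33.2) without Jdp2, 12.7 to 26.2 CPM (median 18.9) without Glis1 and 15.8 to 40.0 CPM (median 23.3) without Sall4. Its highest values without Sall4 were those of days 0 and 1.

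Of the 20 mitosis genes, all were higher without Esrrb and without Jdp2 than without Sall4 and without Esrrb than without Glis1. The shares of all genes were 22.2%, 18.2% and 20.4% in this order. The largest log2 differences between the arms without Esrrb and without Sall4 were Top2a (2.86), Bub1b (2.82) and Aurkb (2.69). Without Glis1, 19 were lower than without Jdp2 (18.0% of all genes) and 12 higher than without Sall4 (16.2%). Between the arms without Esrrb and without Jdp2 their median log2 difference was 0.16, where that of the 38 replication genes was 0.45. JEGS was higher for 15 of 20 against the mean of the arms (3.2% of all genes), led by Mybl2 (1.94), Ccnb1 (1.39) and Kif20a (1.36). By day, 19 of 20 fell without Sall4 (5.57% of all genes) at a median slope of -0.49. The lists were chosen by function, and their genes share the same libraries, so the counts are not independent of those of the members.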

How the data were processed

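RNA-seq of 35 libraries was analysed from 1 deposited gene table per library. Per the submitters' processing notes, reads were converted with bcl2fastq and quantified with RSEM and Bowtie2 on mm10; versions are not given in the sources used here. Per the file headers, each table holds the authors' expected counts, TPM values and FPKM values per gene, not normalized between libraries; the deposited FPKM were not used. Expected counts were rounded to whole numbers for the count model, and their totals per library ranged from 1266379 to 3608456 (median 1973102). CPM printed are rounded expected counts scaled to a library total of 1000000 and divided by the library's TMM factor. Ensembl IDs were named from the reference tables (54723 of 54752 matched). Sequences are from RefSeq (GRCm38.p6) and gene positions from GENCODE vM21.

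edgeR 4.0.16 in R 4.3.3 (TMM scaling, quasi-likelihood test, genes at 1 CPM or more in 3 libraries) was fitted to all genes that passed: the 32 leave-out libraries by arm and day, the same by arm with a line in day, and the 15 libraries of days 2, 4 and 6 for JEGS. Adjusted p-values are Benjamini-Hochberg over all genes tested. The scripts were tested on simulated data, with 100 changed genes per size of change. At a true log2 change of 1, 43 were recovered between the arms without Esrrb and without Sall4. It was 22 for JEGS against the arm without Sall4 and 20 for day 1 against day 0. Among the more abundant of them, it was 41 of 52, 22 of 64 and 19 of 48. At a log2 change of 2 the counts were 63, 68 and 58. Few calls in a comparison can thus leave real changes unseen. Alternatives were DESeq2 1.42.0, limma 3.58.1 on log2(TPM + 1), other scalings, filters and time scales, thinned counts, and each library or day left out; the slopes over days 2 to 7 were added after the data were seen. The members and all lists were chosen with earlier results of these data known. Every member is described by role; the 2 members with the largest and the 2 with the smallest change in a comparison are given with their statistics, and of the other lists at most 3 genes per comparison.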

Additional observations from a re-analysis of the deposited data

Results flagged for a closer look

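Summed TPM by role was checked in each 8-library arm for a library far from the others, in 40 sets of sums, where chance alone marks about 1 in 20. The single strand binding genes Rpa1 to Rpa3 summed to 125 TPM on day 0 without Glis1, and to 53.7 to 86.2 TPM on the other 7 days. The nucleotide supply genes summed to 482 TPM on day 0 without Jdp2, and to 199.5 to 299 TPM on the other days. By edgeR's test of 1 arm against the average slope of the remaining 3, 11 members had a lower slope without Sall4 (1.1% of all genes). Rfc1 alone had a higher slope without Esrrb, where 2.72% of all genes did. As 1 of 38 members, this call does not exceed that share. The count of 1 moved in 29 of 40 fits with a library or day left out.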

How the results depend on the processing

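The replicate numbers stand for days, and the models of the arms hold day as a term, which pairs the libraries of a day. Without this replicate block, the count of members called was 34, 7 and 36 without Esrrb against without Glis1, Jdp2 and Sall4, 24 and 10 without Glis1 against without Jdp2 and Sall4, and 35 without Jdp2 against without Sall4, so the counts of 7 and 10 moved by over 1.5 times. All settings kept the direction of the members called between the 6 pairs of leave-out arms. With 1 library or 1 day left out in turn, the count of members called was 34 to 36 without Esrrb against without Glis1, 5 to 20 against without Jdp2 and 37 to 38 against without Sall4, 22 to 30 without Glis1 against without Jdp2 and 7 to 20 against without Sall4, 35 to 37 without Jdp2 against without Sall4, and 0 to 2 for day 1 against day 0. For JEGS it was 1 to 23 against the mean, 0 to 2 against the arm without Esrrb, 9 to 29 without Glis1, 0 to 1 without Jdp2 and 26 to 35 without Sall4. For slopes it was 3 to 20 (mean), 1 to 4 (without Esrrb), 0 to 11 (without Glis1), 1 to 5 (without Jdp2) and 3 to 21 (without Sall4), and for an arm's slope minus the others' 0 to 10, 0 to 0, 0 to 4 and 1 to 17 in the same order. Reversals among these counts were 1 member each: day 1 against day 0 without the minus-Esrrb arm's day 1, the minus-Sall4 arm's day 0 or its day 6, the slope without Esrrb without its day 0, and that slope minus the others' with day 0 left out.

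Other settings moved these counts. Without Esrrb against without Jdp2, DESeq2 called 20 and limma on TPM 7. For day 1 against day 0, DESeq2 called 2, library totals alone 1 in the reverse direction, and no filter, limma and days 0 and 1 alone 0. JEGS against the mean gave 26 with no filter, 1 with limma and 9 with all 35 libraries, and JEGS against the arm without Esrrb 0 with limma. The slope without Glis1 was called for 0 members with library totals alone, no filter or limma and for 4 with log2(day + 1), and that without Jdp2 for 1 with limma. The slope of the arm without Esrrb minus the others' was called for 2 (DESeq2), 0 (no filter), 2 (thinned) and 6 (log2(day + 1)), and that of the arm without Sall4 for 5 (limma). Over days 2 to 7, a choice made after seeing the data, the mean slope was called for 4, in the reverse direction on balance, that without Glis1 for 1 that rose, without Jdp2 for 12 and without Sall4 for 0, and the slopes minus the others' for 1 without Esrrb that was lower, 4 without Jdp2 and 2 without Sall4. The mean slope then turned positive for Rpa1 (0.000517), Mcm5 (0.0171), Pole (0.0527), Mcm4 (0.00129), Prim1 (0.0135), Mcm3 (0.0641) and Lig1 (0.117), as did the slope of Mcm3 without Glis1 (0.207) and of Rpa1 (0.141) and Gins2 (0.213) without Jdp2. These fits over days 2 to 7 use fewer libraries, and the shares of all genes called in them are not given here. The cause of the other changes was not tested.

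Library totals alone shifted the median of all genes by 0.21 (log2) between the arms without Esrrb and without Sall4, where 5349 genes were then higher and 3347 lower, against 4025 and 4507. Relative to all genes, the members' median was 1.76 against 1.74. At 1266379 counts in the smallest library, differences of Gins3, Orc1, Gins1 and Cdc6 are limited by depth.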
